A study of Mus musculus with 2 samples.

Results

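Collagens are mostly secreted proteins whose chains wind into a triple helix, and each chain has its own gene. The 44 genes described here are those of the 27998 in the deposited gene lists whose symbol is Col, a number, a and a number, which are the genes for the collagen chains. 1 further symbol that starts the same way, Col4a3bp, encodes a lipid transfer protein and was not counted. Counts came from single-cell RNA libraries of mouse liver nonparenchymal cells, the cells left in suspension after hepatocytes are pelleted. There were 2 libraries, both from C57BL/6 mice given CCl4 4 times, and each is labelled as a sample from 3 mice. CCl4 is a liver toxin, and repeated doses are a fibrosis model. The wild type library had 5269 barcodes. The yap1 library had 4731 and came from mice that the series describes as Yap1 flox/flox with Lyz2-Cre, in which the recombinase is driven from a myeloid gene that is also used below to find myeloid barcodes. With 1 library per genotype, pooled animals and no values per mouse, no difference between genotypes could be tested, genotype and library cannot be told apart, and every interval below covers counting error only.

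Fibrillar collagens (types I, III and V) give tissue its tensile strength, and in injured liver they are made mainly by stellate cells and portal fibroblasts. Type IV is the network collagen of basement membranes. Type VI forms beaded filaments around cells, types XII, XIV and XVI sit on fibril surfaces, types XV and XVIII are basement membrane proteoglycans, and type XIII is a collagen that spans the cell membrane. Most collagens mix different chains: type I joins Col1a1 and Col1a2 products with Col1a1 in excess, and the common type IV network joins Col4a1 and Col4a2 products with Col4a1 in excess.

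A unique molecular identifier (UMI) is 1 counted RNA molecule, and a barcode stands for 1 droplet, usually 1 cell. After filters on depth and mitochondrial RNA, 4847 wild type and 4149 yap1 barcodes remained, with medians of 4115 and 5323 UMIs. Barcodes were sorted by the genes that mark each class. The mesenchymal class needed at least 1 UMI of Dcn, a matrix proteoglycan of fibroblasts and stellate cells. The endothelial class needed Ptprb and Kdr together, 2 endothelial receptors. The myeloid class needed at least 20 UMIs of Lyz2, or 2 of Clec4f, a Kupffer cell lectin, or 2 of Gpnmb, a marker of lipid-loaded macrophages. Barcodes that passed more than 1 gate were set apart, 64 in the wild type and 35 in the yap1 library. This left 37 and 23 mesenchymal, 331 and 251 endothelial and 1275 and 1254 myeloid barcodes. B cell barcodes had at least 2 UMIs each of Cd79a and Cd79b and passed none of the 3 gates, which left 1066 and 841. They served as a class that should lack collagen RNA and so show the background of free RNA. As the gates came first, no barcode with a Dcn UMI was among them. Yap1 itself had 2 and 3 UMIs over all myeloid barcodes, wild type and yap1 in that order here and below, so its deletion could not be checked at this depth. The libraries shared 5 barcode sequences, of which 3 wild type and 5 yap1 barcodes were kept.

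The gates were checked against marker lists that include the gating genes, so part of each sum was set by the gate. All 10 endothelial markers were present in the endothelial class of both libraries and summed to 15715 and 16692 CPM (the UMIs of a gene or list, scaled to the same total of UMIs in each class), against 326 and 285 CPM in B cell barcodes. Of these endothelial sums, Ptprb and Kdr made 2392 and 1787 CPM in wild type, and 2448 and 2085 CPM in yap1. All 16 mesenchymal markers were present in the mesenchymal class and summed to 16992 and 18858 CPM, of which Dcn made 4906 and 6464 CPM. In endothelial barcodes the mesenchymal list summed to 2985 and 2870 CPM, most of it from Sparc, a matrix gene whose endothelial counts are given below. Dcn was at 0 in the endothelial and myeloid classes, as the gate requires. The mesenchymal class also held neutrophil markers, at 2415 and 2498 CPM, mesothelial markers, at 282 and 2229 CPM, and B cell markers, at 488 and 573 CPM. Cd79a was found in 12 of its 37 wild type and 5 of its 23 yap1 barcodes, and Ptprc, a leukocyte gene, in 18 and 8. Shares of the class given below count these barcodes too. Dcn was a loose gate: 60 of the 92 wild type barcodes with Dcn and 34 of the 51 yap1 barcodes had 1 UMI of it. Within the mesenchymal class, 25 of 37 wild type and 15 of 23 yap1 barcodes had at least 2 other mesenchymal markers, and these held 4899 of the 4900 wild type collagen UMIs and all 5238 of the yap1 collagen UMIs. The other 12 and 8 barcodes held 1 and 0 collagen UMIs. Median depth in the class was 5663 UMIs in wild type and 2663 in yap1.

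Collagen RNA was concentrated in very few barcodes. The mesenchymal class had 4900 collagen UMIs in the wild type library, or 16058 CPM (95% Poisson interval 15611 to 16514), and 5238 in the yap1 library, or 25212 CPM (24534 to 25904). The endothelial class had 2018 and 1351 collagen UMIs, or 1503 and 1467 CPM. The myeloid class had 177 and 237 collagen UMIs, or 13.6 CPM in each library, next to 14.4 and 13.3 CPM in B cell barcodes. The interval in myeloid barcodes, 11.7 to 15.8 and 11.9 to 15.5 CPM, overlapped that in B cell barcodes, 11.3 to 18.2 and 10.1 to 17.1 CPM. A collagen UMI of any kind was found in 87.3% and 83.7% of endothelial barcodes, in 56.8% and 60.9% of mesenchymal barcodes, and in 12.1% and 14.8% of myeloid barcodes. The share in B cell barcodes was 5.91% and 6.18%, where barcodes were shallower (median UMIs 3805 and 4522) than myeloid ones (10070 and 13927).

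**Figure D1:**
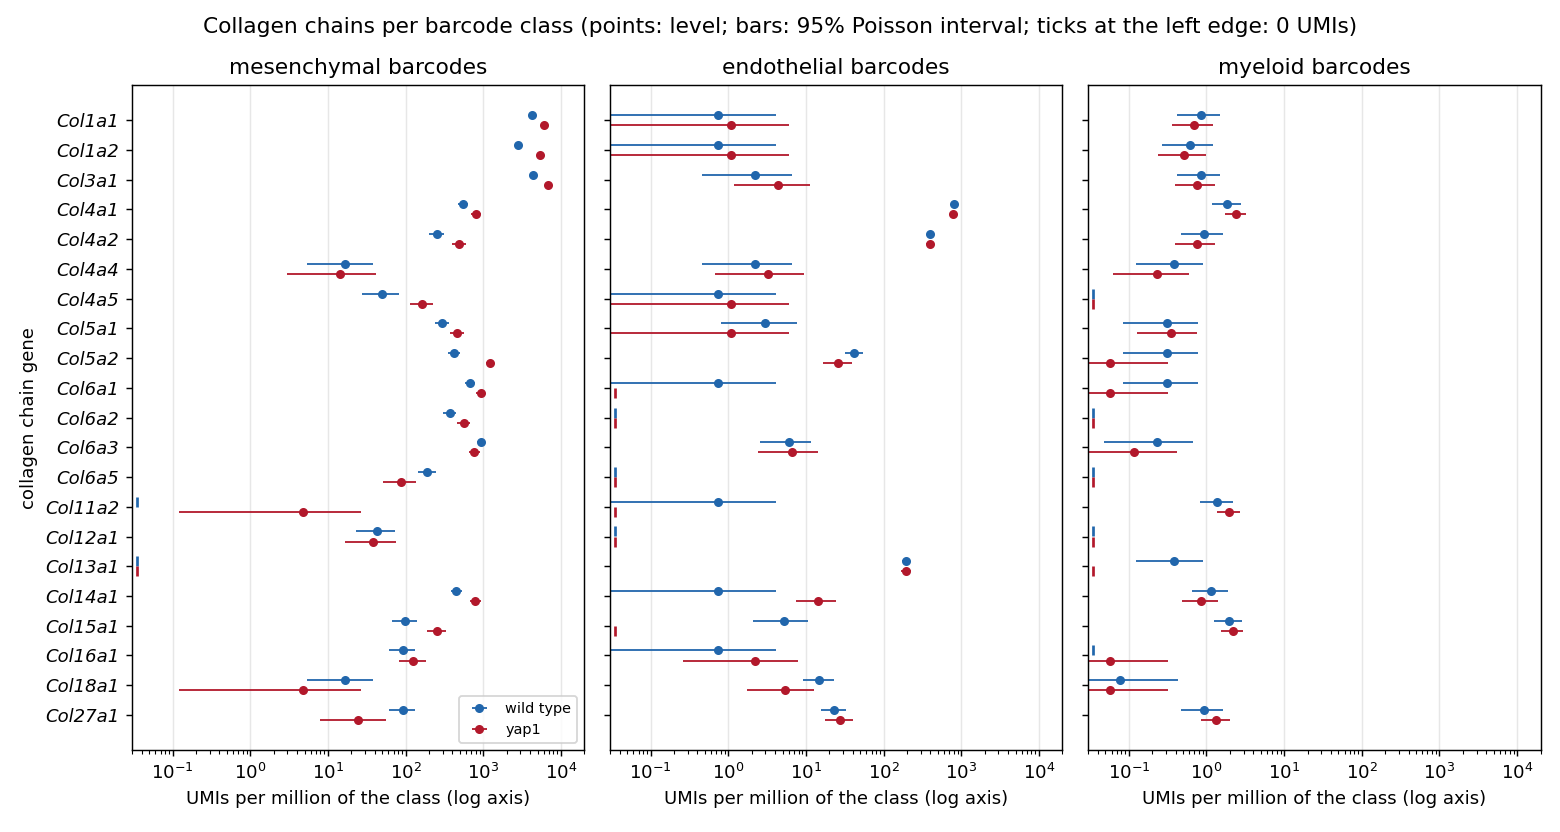
Level of the 21 chains with at least 20 UMIs in the 3 classes, in CPM of each class on a log axis. Points are libraries, bars are 95% Poisson intervals, and ticks at the left edge mark 0 UMIs. Most chains sit far to the right in mesenchymal barcodes, while Col4a1, Col4a2 and Col13a1 are the rightmost points in endothelial barcodes.

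A chain was called detected in a class with at least 3 UMIs in at least 2 barcodes, and above background where the lower exact binomial limit of its share of barcodes was over the upper limit in B cell barcodes. In mesenchymal barcodes, 23 wild type and 21 yap1 chains were detected. All 23 and 20 of the 21 were above background, where the same rule called 29.7% and 22.3% of all detected genes. In endothelial barcodes, 11 chains were detected in each library and 6 in each were above background, against 29.4% and 22.1% of all detected genes. In myeloid barcodes, 17 and 14 were detected, and 2 and 4 were above background, against 54.4% and 60.7% of all detected genes. The myeloid share was below that of all genes in both libraries. The 20 chains above background in mesenchymal barcodes of both libraries were those of types I, III, VI (Col6a1, Col6a2, Col6a3 and Col6a5), VIII, XII, XIV, XV and XVI, with Col4a1, Col4a2, Col4a4, Col4a5, Col4a6, Col5a1 and Col5a2. The 5 in endothelial barcodes of both libraries were Col4a1, Col4a2, Col5a2, Col13a1 and Col27a1. The 2 in myeloid barcodes of both libraries were Col4a1 and Col15a1.

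Of all 44 chains, 21 had at least 20 UMIs over the 3 classes, 16 had 1 to 19 and 7 had 0. The 7 were Col6a4, Col10a1, Col11a1, Col22a1, Col25a1, Col26a1 and Col28a1. Col6a4, Col11a1, Col22a1 and Col26a1 had no UMI in any deposited barcode. The low group included cartilage chains, with 1 UMI each of Col2a1, Col9a1 and Col9a2 and 13 of Col9a3. It also held Col17a1 with 4 UMIs, Col19a1 with 1, Col20a1 with 10, Col23a1 with 7, Col24a1 with 6, Col4a3 with 5, Col5a3 with 11, Col6a6 with 4 and Col7a1 with 18. Col4a6 had 15, Col8a1 18 and Col8a2 13, and nearly all of these were in mesenchymal barcodes.

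The main fibrillar chains, Col1a1, Col1a2 and Col3a1, had nearly all their UMIs in the mesenchymal class. Col3a1, the type III chain, lies at chr1:45311538-45349706 on the plus strand (mm10). It had 1331 UMIs in 16 of 37 wild type and 1416 UMIs in 12 of 23 yap1 mesenchymal barcodes. In endothelial barcodes it had 3 and 4 UMIs, and in myeloid barcodes 11 and 13. Its level in wild type mesenchymal barcodes was 4362 CPM, and the ratio to endothelial barcodes was 1952 (interval 667 to 9478). Col1a1, at chr11:94936224-94953042, had 1288 and 1256 mesenchymal UMIs in 15 and 13 barcodes, and 1 endothelial UMI in each library. Col1a2, at chr6:4504814-4541544, had 858 and 1123 mesenchymal UMIs in 15 and 12 barcodes, and also 1 endothelial UMI in each. For these chains the myeloid class carried 8 to 13 UMIs per chain and library, under 1 CPM, and B cell barcodes carried up to 9. All of Col1a1, Col1a2 and Col3a1 were found together in 12 mesenchymal barcodes of each library.

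The bases upstream of the start sites differ widely in composition between chains. The windows shown are the 250 bases before the RefSeq start (build GRCm38.p6), 5′ to 3′ on the strand of the gene, chosen because Col3a1 and Col5a1 are fibrillar chains with most of their UMIs in mesenchymal barcodes, and Col13a1 passed the detection rule in endothelial barcodes of both libraries with no mesenchymal UMI. Capitals mark the letters TATAAA or their reverse complement in Col3a1 and Col13a1, and GGGCGG or its reverse complement in Col5a1. Col3a1 is chr1:45311288-45311537, Col5a1 is chr2:27886175-27886424 and Col13a1 is chr10:61979109-61979358 on the minus strand.
Col3a1: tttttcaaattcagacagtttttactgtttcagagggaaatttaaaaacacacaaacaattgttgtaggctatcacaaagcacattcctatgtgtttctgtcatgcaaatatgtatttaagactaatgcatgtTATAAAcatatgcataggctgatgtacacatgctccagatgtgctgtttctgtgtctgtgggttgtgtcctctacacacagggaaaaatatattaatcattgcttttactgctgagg
Col5a1: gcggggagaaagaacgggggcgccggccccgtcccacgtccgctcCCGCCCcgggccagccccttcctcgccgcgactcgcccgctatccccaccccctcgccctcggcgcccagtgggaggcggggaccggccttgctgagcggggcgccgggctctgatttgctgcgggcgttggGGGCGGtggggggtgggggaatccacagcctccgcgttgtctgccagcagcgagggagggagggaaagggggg
Col13a1: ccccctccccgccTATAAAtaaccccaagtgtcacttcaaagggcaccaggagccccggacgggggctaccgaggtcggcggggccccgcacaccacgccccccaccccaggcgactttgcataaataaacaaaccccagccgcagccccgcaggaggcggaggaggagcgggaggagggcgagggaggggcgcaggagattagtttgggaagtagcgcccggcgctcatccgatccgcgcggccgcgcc
The GC content of these windows was 35.2%, 76.4% and 68.8%, against a median of 52.4% over all 32851 windows of the RefSeq table. The median of the 38 windows of the collagen genes was 59%. On either strand, TATAAA was found in 5 of 38 windows of the collagen genes (13.2%) and in 12.4% of all windows. CCAAT was found in 34.2% and 33.8%, and GGGCGG in 57.9% and 32.7%. The part of GC content in the GGGCGG shares was not tested. The table had windows for 35 of the 44 genes, some with more than 1, and none for Col1a1, Col5a2 or Col14a1. A match is only a run of letters and says nothing of binding.

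Type V, which sets fibril diameter, was highest in mesenchymal barcodes, with Col5a2 also found in endothelial barcodes. Col5a1 had 90 and 95 mesenchymal UMIs, in 12 and 10 barcodes, and 4 and 1 endothelial UMIs. Col5a2 had 130 and 255 mesenchymal UMIs, in 13 and 10 barcodes, and 56 and 24 endothelial UMIs, in 34 and 15 barcodes. Its level was 426 and 1227 CPM in mesenchymal against 41.7 and 26.1 CPM in endothelial barcodes. Endothelial barcodes thus carried Col5a2 with almost no Col5a1: the UMI ratio of Col5a1 to Col5a2 was 0.0714 (interval 0.0188 to 0.193) and 0.0417 (0.00101 to 0.256) there, against 0.692 (0.523 to 0.913) and 0.373 (0.291 to 0.473) in mesenchymal barcodes. UMIs were not scaled for gene length, so such a ratio can be compared between classes but does not give the proportion of proteins. No endothelial barcode of either library held both chains, but Col5a1 was in only 3 and 1 of them, too few to judge overlap. None of the 1066 and 841 B cell barcodes had a UMI of Col5a1 or Col5a2, which allows a share of up to 0.345% and 0.438% (exact binomial). In the same endothelial barcodes Col1a1 had 1 UMI per library, and Dcn was at 0 by the gate.

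Of the 3 classes, only the mesenchymal class had type VI chains above background. Col6a1 had 206 and 192 mesenchymal UMIs, Col6a2 113 and 117, and Col6a3, the largest of the classical type VI chains, 282 and 160. In endothelial barcodes Col6a1 had 1 and 0 UMIs, Col6a3 8 and 6, and Col6a2 none. The zero for Col6a2 made its mesenchymal level at least 166-fold (wild type) and at least 173-fold (yap1) higher than the endothelial level, taking 3 UMIs per class as the floor. Col6a1 and Col6a2 stood at a UMI ratio of 1.82 (1.44 to 2.31) and 1.64 (1.30 to 2.08). Col6a5, an alternative type VI chain at chr9:105856078-105960643, had 58 UMIs in 4 wild type mesenchymal barcodes and 18 UMIs in 3 yap1 mesenchymal barcodes. It had none in endothelial, myeloid or B cell barcodes.

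The fibril-associated chains and Col15a1 were highest in mesenchymal barcodes, while Col18a1 had few UMIs in mesenchymal and endothelial barcodes alike. Col14a1, which coats mature fibrils, had 138 and 165 mesenchymal UMIs in 11 and 8 barcodes. Its endothelial UMIs were 1 in the wild type and 13 in the yap1 library, in 6 barcodes. Col12a1 had 13 and 8 mesenchymal UMIs and Col16a1 28 and 26. Col15a1 had 30 and 52 mesenchymal UMIs, each in 6 barcodes. Col18a1, whose C-terminal fragment is endostatin, had 5 and 1 mesenchymal UMIs (16.4 and 4.81 CPM) and 20 and 5 endothelial UMIs (14.9 and 5.43 CPM).

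Endothelial barcodes carried the type IV chains. Col4a1 (chr8:11198423-11312826, minus strand) had 1082 UMIs in 244 of 331 wild type and 717 UMIs in 172 of 251 yap1 endothelial barcodes, or 806 and 778 CPM. Col4a2 (chr8:11312805-11449287, plus strand) had 531 and 363 UMIs in 201 and 146 barcodes, or 395 and 394 CPM. Mesenchymal barcodes also held both, with 169 and 168 UMIs of Col4a1 and 77 and 102 of Col4a2. For Col4a1 the endothelial level was 1.46 times (1.24 to 1.72) the wild type mesenchymal level, and 0.963 times (0.813 to 1.15) in yap1. In myeloid barcodes Col4a1 had 24 and 42 UMIs, or 1.85 and 2.41 CPM. After each barcode was thinned to 1000 UMIs, Col4a1 was found in 49.8% and 47.1% of endothelial barcodes, in 27.3% and 26.3% of mesenchymal barcodes, in 0.32% and 0.242% of myeloid barcodes, and in none of 1065 and 841 B cell barcodes, which allows up to 0.346% and 0.438%. The unthinned shares were 73.7% and 68.5% in endothelial, 29.7% and 43.5% in mesenchymal, and 1.73% and 2.55% in myeloid barcodes.

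Col4a1 and Col4a2 lie head to head, and their annotated transcripts overlap by 22 bases at the start. These bases are shown because both genes begin in them, on opposite strands. They are given on the plus strand at chr8:11312805-11312826 (GRCm38.p6), with GGGCGG in capitals.
Col4a1 and Col4a2 start: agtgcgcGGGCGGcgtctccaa
The UMI ratio of Col4a1 to Col4a2 was 2.04 (1.83 to 2.26) and 1.98 (1.74 to 2.25) in endothelial barcodes. In mesenchymal barcodes it was 2.19 (1.67 to 2.91) and 1.65 (1.28 to 2.13), so all 4 intervals overlapped. Both chains were found in 178 wild type and 122 yap1 endothelial barcodes. The other head-to-head pairs of the family were sparse. Col4a3 and Col4a4, whose starts lie 72 bases apart on chromosome 1, had 5 UMIs and 23 UMIs over the 3 classes. Col4a4 had 5 and 3 mesenchymal UMIs, in only 4 and 2 barcodes. It had 3 and 3 endothelial and 5 and 4 myeloid UMIs. Col4a5 and Col4a6, with starts 1309 bases apart on the X chromosome, had 15 and 34 mesenchymal UMIs of Col4a5 and 3 and 12 of Col4a6. Endothelial barcodes had 1 UMI of Col4a5 in each library and none of Col4a6.

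Col13a1, at chr10:61838236-61979108, was the other endothelial chain. It had 259 UMIs in 134 wild type and 178 UMIs in 88 yap1 endothelial barcodes, or 193 CPM in each library. No UMI was found in the 37 and 23 mesenchymal barcodes, which allows a share of up to 9.49% and 14.8% and makes the endothelial level at least 19.6-fold and at least 13.4-fold higher. It was found in 40.5% and 35.1% of endothelial barcodes and, thinned to 1000 UMIs, in 18.5% and 17.5%. Myeloid barcodes had 5 and 0 UMIs of it, and B cell barcodes 0 and 1. Col27a1, a fibrillar collagen best known from cartilage, was present in endothelial barcodes at 31 and 25 UMIs, in 28 and 20 barcodes. Mesenchymal barcodes had 28 and 5 UMIs of it, or 91.8 and 24.1 CPM. This was 3.97 times (2.30 to 6.85) the endothelial level in wild type and 0.887 times (0.265 to 2.36) in yap1. Col27a1 also had 20 and 19 UMIs in B cell barcodes. Its level was 23.1 and 27.1 CPM in endothelial against 4.06 and 4.27 CPM in B cell barcodes.

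**Figure D2:**
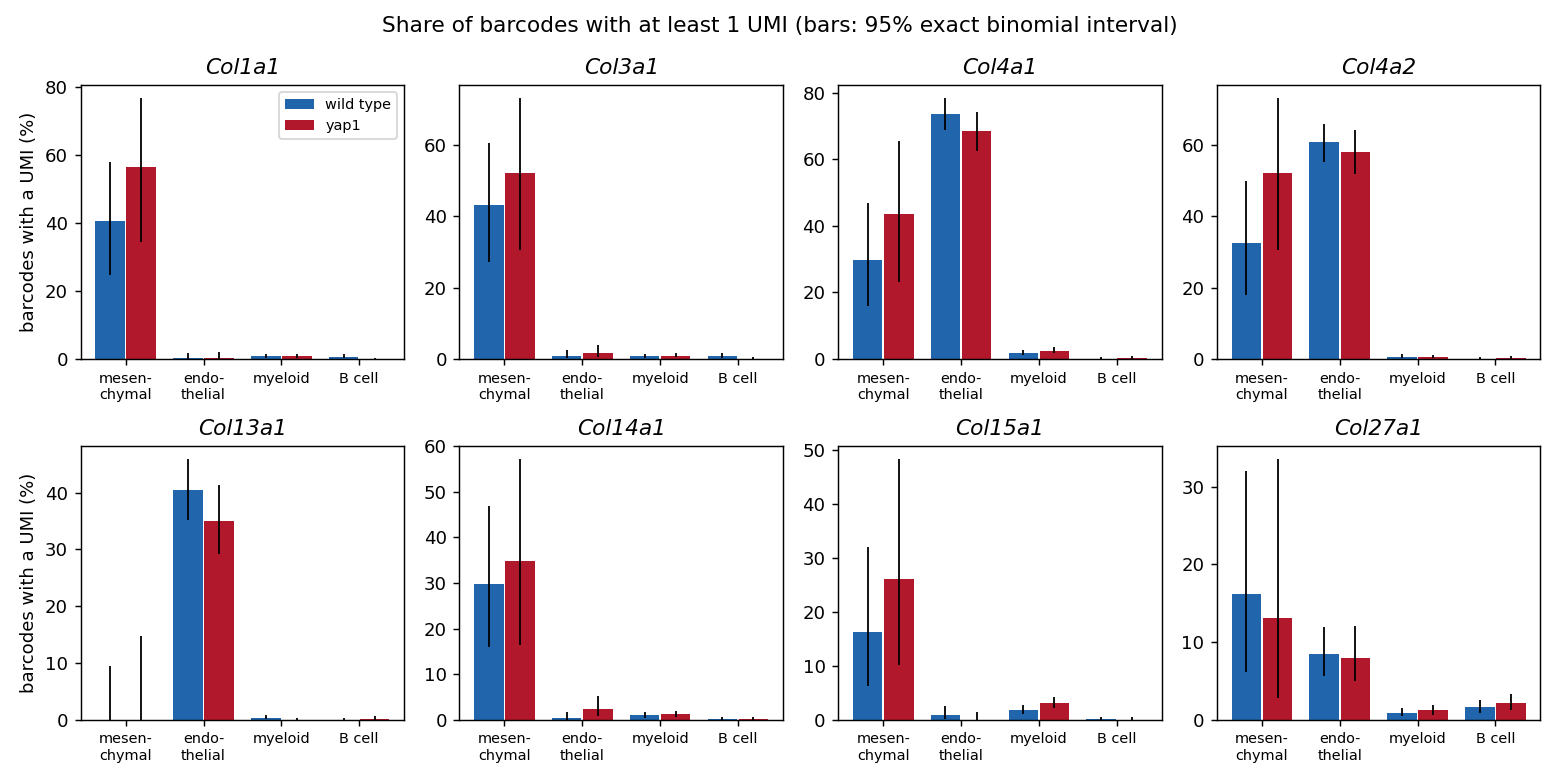
Percent of barcodes with at least 1 UMI of 8 chains, by class and library, with 95% exact binomial intervals and axes that start at 0. Col1a1 and Col3a1 are high in mesenchymal barcodes, Col13a1 in endothelial and at 0 in mesenchymal barcodes, and Col4a1 and Col4a2 in both, while myeloid and B cell bars stay low.

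Myeloid barcodes held few UMIs of any chain. Their most frequent chains were Col4a1 and Col15a1, with 25 and 38 UMIs of Col15a1 in 23 and 38 barcodes. These were 1.92 and 2.18 CPM, against 1 and 0 Col15a1 UMIs in B cell barcodes. In the yap1 library 25 of the 38 UMIs were in the 454 barcodes gated by Gpnmb without Clec4f, in 5.51% of them, and in the wild type library 7 of the 25 were in 256 such barcodes, in 2.73%. Thinned to 1000 UMIs, Col15a1 was left in 1 of 1249 wild type and 1 of 1240 yap1 myeloid barcodes, which is too few to compare. Gm12426 lies antisense to Col15a1, and whether counting used strand is unknown here. Col11a2, a chain of cartilage fibrils, had 18 and 34 UMIs in myeloid barcodes, or 1.38 and 1.95 CPM, below the 2.44 and 2.70 CPM of B cell barcodes. Endothelial markers in myeloid barcodes summed to 385 and 344 CPM, all 10 of them present, against 326 and 285 CPM in B cell barcodes. Their part in the myeloid Col4a1 UMIs was not tested.

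A few barcodes carried most of the mesenchymal collagen. The barcode with the most had 1334 collagen UMIs in the wild type library, 27.2% of the class, and 3072 in the yap1 library, 58.6% of the class. The 5 richest held 77.9% and 91.4%. The richest yap1 barcode had 46283 UMIs in all, of which 6.64% were collagen, with 27 of the 44 chains. Whether this barcode held 1 cell or a doublet was not tested, and it carried markers of both stellate cells and portal fibroblasts. Dropping the 4% of barcodes that scored highest as doublets left the yap1 level at 25212 CPM, so this barcode was not among them. The scores came from a doublet caller that had not worked, so they cannot decide the question. The barcode held 842 UMIs of Col1a1, 788 of Col1a2, 675 of Col3a1 and 165 of Col5a2. The richest wild type barcode had 26033 UMIs and 19 chains, with 482 UMIs of Col1a1, 280 of Col1a2 and 240 of Col3a1. In both libraries this barcode had the most Acta2, the smooth muscle actin of activated myofibroblasts, with 243 and 76 UMIs. No other mesenchymal barcode had more than 11 and 5 UMIs of Acta2.

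**Figure D3:**
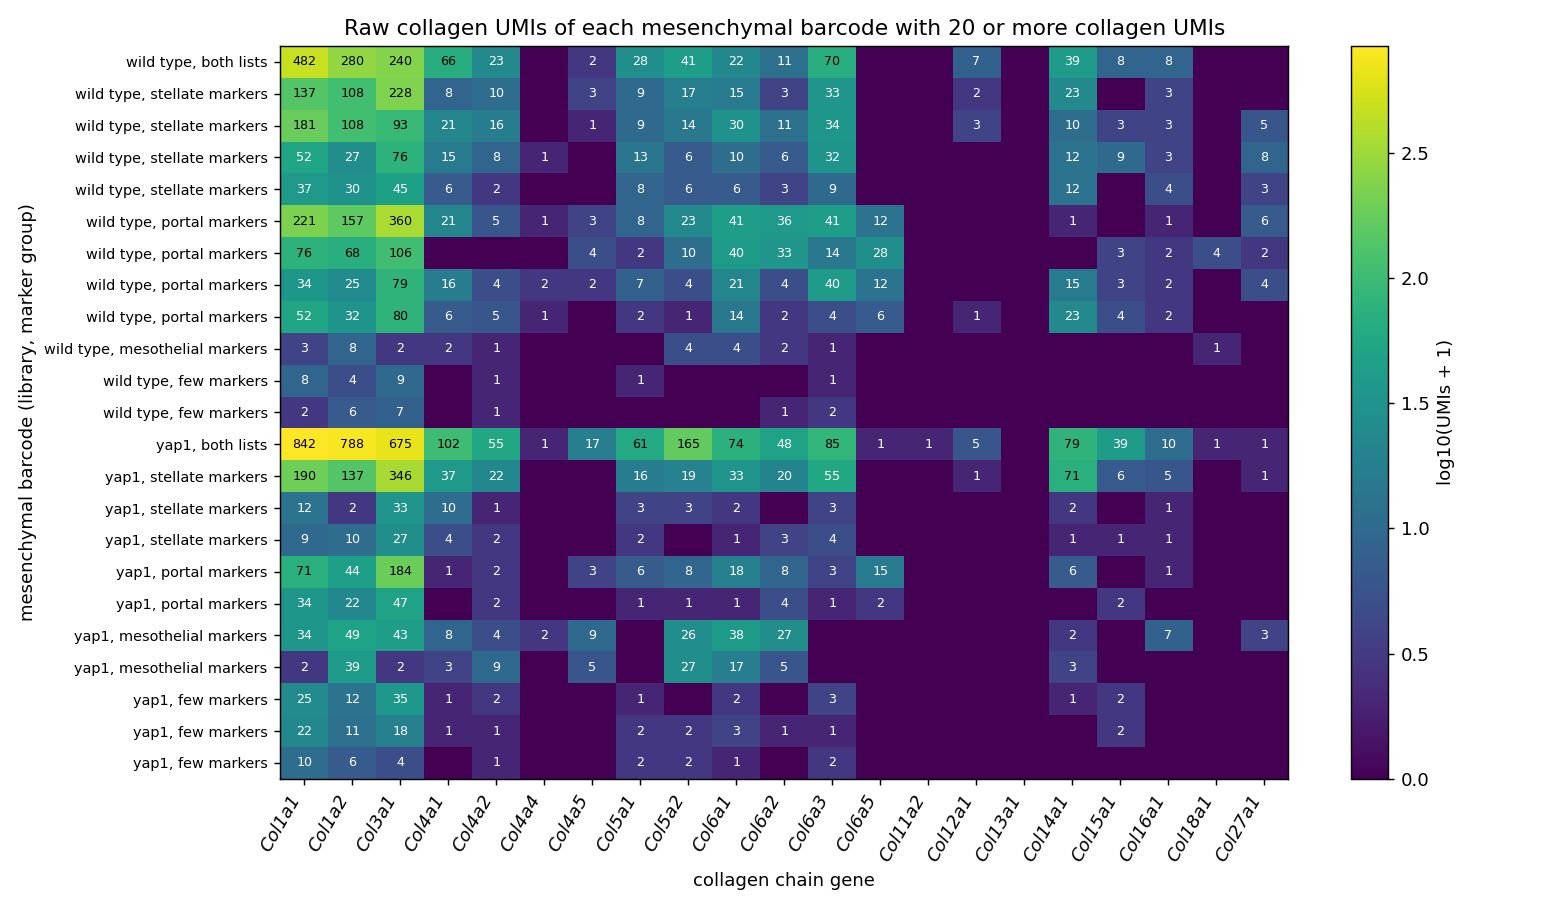
Raw UMIs of 21 chains in each mesenchymal barcode with at least 20 collagen UMIs, 1 row per barcode, coloured by log10(UMIs + 1) and labelled by library and marker group. The 2 rows with markers of both lists hold the most UMIs of Col1a1, with 482 and 842, and Col6a5 appears in rows with portal markers and, with 1 UMI, in the yap1 row with both lists.

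The chains differed between kinds of mesenchymal barcode. Barcodes were grouped by 10 stellate cell markers such as Reln and Lrat, 10 portal fibroblast markers such as Cd34 and Dpt, and 7 mesothelial markers such as Msln and Upk3b. The grouping was made after values were seen and is a description. 6 wild type and 3 yap1 barcodes carried mainly stellate markers, 4 and 2 mainly portal markers, 1 and 1 both, and 2 and 4 at least 4 mesothelial markers. The remaining 24 and 13 had too few markers to be placed and held 68 and 195 collagen UMIs. Collagen made 0 to 2.33% of the RNA of each of these in wild type, and 0 to 9.88% in yap1. Col6a5 had all 58 of its wild type UMIs in the 4 portal barcodes and 0 in the 6 stellate barcodes. In the yap1 library, 17 of its 18 UMIs were in the 2 portal barcodes. By barcode the counts were 28, 12, 12 and 6 in wild type, and 15 and 2 in yap1. The barcodes with 28 and 15 also had 13 UMIs each of Wt1, which is on the mesothelial list, and 1 and 0 UMIs of Dpt. Wt1 was at 0, 3 and 0 in the other wild type portal barcodes and at 0 in the other yap1 one, which had 13 UMIs of Cd79a. The 2 richest yap1 mesothelial barcodes had 14 and 13 Wt1 UMIs. A wild type barcode with 348 Dcn UMIs and 9 portal markers that passed more than 1 gate held another 56. Col14a1 was carried by both kinds, with 58 and 74 UMIs in stellate and 39 and 6 in portal barcodes.

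The mesothelial barcodes had a different set. Those of the yap1 library had 381 collagen UMIs, or 0.491% of their RNA, against 4.62% in stellate and 2.28% in portal barcodes of that library. They held 57 UMIs of Col6a1, 32 of Col6a2 and 55 of Col5a2, and none of Col6a3 or Col5a1. Col1a2 had 88 UMIs there and Col1a1 36, while Col1a1 exceeded Col1a2 in stellate barcodes, with 211 against 149, and in portal barcodes, with 105 against 66. The 2 richest of these barcodes had 71 and 42 Msln UMIs, with 49 and 39 UMIs of Col1a2, 34 and 2 of Col1a1, and 43 and 2 of Col3a1. Col4a5 and Col4a6 had 14 and 6 UMIs there, 17 and 3 in the barcode with markers of both lists, 3 and 3 in the portal barcodes and none in the stellate barcodes of that library. The wild type library had 36 collagen UMIs in mesothelial barcodes, which is too few to repeat the comparison.

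Between libraries, the direction of the mesenchymal difference turned on 1 barcode. The summed level was 1.57 times (interval 1.51 to 1.63) the wild type level in yap1 mesenchymal barcodes. Without the yap1 barcode with the most collagen it was 0.835 times, without the wild type barcode with the most it was 1.97 times, and without both it was 1.05 times (0.995 to 1.11). Of 17 chains with at least 20 UMIs, 9 were at least 1.5-fold higher with an interval above 1, against 8.59% of all 4016 genes compared, and 2 were at least 1.5-fold lower, against 9.71%. The median log2 ratio was 0.60 for the chains and -0.08 for all genes. Without the richest barcodes, 3 of 16 chains were higher and 3 lower, against 8.74% and 10% of genes, and the median log2 ratio was 0.15. These checks were added after the data were seen.

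Most chain ratios moved toward 1 without the richest barcode of each library. Col1a2 went from 1.92 (1.76 to 2.10) to 1.0 (0.873 to 1.15), Col1a1 from 1.43 (1.32 to 1.55) to 0.888 (0.787 to 1.0), and Col3a1 from 1.56 (1.45 to 1.69) to 1.17 (1.07 to 1.29). Col5a1 went from 1.55 (1.15 to 2.09) to 0.948 (0.605 to 1.46). Col5a2 was higher in yap1 either way, at 2.88 (2.32 to 3.59) with and 1.75 (1.29 to 2.37) without them. So were Col4a5, at 3.33 (1.77 to 6.58) and 2.26 (1.03 to 5.06), and Col14a1, at 1.76 (1.39 to 2.22) and 1.5 (1.11 to 2.03). Without the 5 richest barcodes, however, Col14a1 was at 0.299, and with barcodes weighted equally at 0.917, and Col4a5 thinned to 1000 UMIs was at 0.868. Col15a1 was at 2.55 (1.59 to 4.13) and 1.02 (0.473 to 2.12), Col4a2 at 1.95 (1.43 to 2.65) and 1.5 (0.995 to 2.27), and Col6a2 at 1.52 (1.16 to 1.99) and 1.17 (0.849 to 1.60). Col6a5 was lower in yap1 with and without the richest barcodes, at 0.456 (0.253 to 0.785) and 0.507 (0.277 to 0.882), but thinned to 1000 UMIs it was at 2.61. Col27a1 was lower either way, at 0.262 (0.0791 to 0.688) and 0.247 (0.0629 to 0.706). Col6a3 was at 0.833 (0.682 to 1.02) and 0.611 (0.464 to 0.799). The UMI ratio of Col1a1 to Col1a2 was 1.5 (1.38 to 1.64) in wild type and 1.12 (1.03 to 1.21) in yap1. Summed mesothelial markers were at 282 CPM in wild type and 2229 CPM in yap1 mesenchymal barcodes, all 7 of them present in each. Of the yap1 Col5a2 and Col4a5 UMIs, 55 and 14 were in mesothelial barcodes and 165 and 17 in the richest barcode. Without barcodes with at least 2 Msln UMIs the ratio of the summed level was 2.26, and without those with 1 Dcn UMI it was 1.18.

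**Figure D4:**
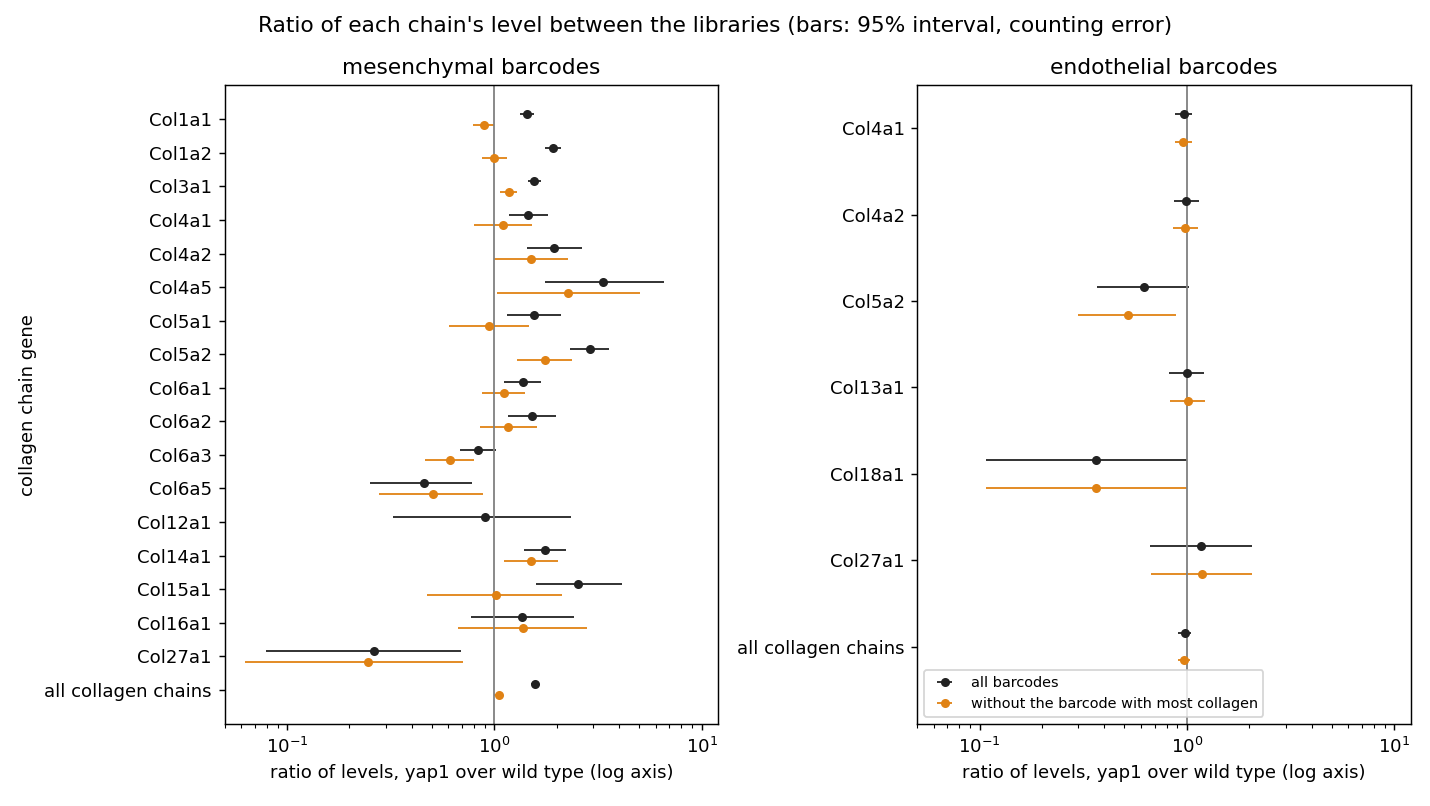
Ratio of each chain's level, yap1 over wild type, on a log axis with 95% intervals for counting error, for mesenchymal and endothelial barcodes. Black points use all barcodes and orange points leave out the barcode with the most collagen in each library. In mesenchymal barcodes the orange points of Col1a1, Col1a2, Col5a1 and Col15a1 move to about 1, while endothelial Col4a1, Col4a2 and Col13a1 stay there.

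Endothelial collagen levels of the libraries were close. The summed ratio was 0.976 (0.910 to 1.05). Col4a1 was at 0.966 (0.878 to 1.06), Col4a2 at 0.996 (0.869 to 1.14) and Col13a1 at 1.0 (0.823 to 1.22), so the intervals of all 3 lay within 1.5-fold. Col5a2 was at 0.625 (0.370 to 1.02), Col18a1 at 0.364 (0.107 to 1.0) and Col27a1 at 1.18 (0.665 to 2.06). Of these 6 chains none was called higher, against 3.16% of all 8806 genes, and none lower, against 3.83%. Without the richest barcode of each library Col5a2 was at 0.523 (0.297 to 0.885), which met the rule for lower. The myeloid summed ratio was 1.0 (0.820 to 1.22). Counting the barcodes of more than 1 gate in each class they passed, it was 0.395, at 39.5 CPM in wild type and 15.6 CPM in yap1. Of 8 myeloid chains none was called higher, against 2.94% of 11486 genes, and none lower, against 5.08%.

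Genes that make, bind and organise collagen were read from 4 lists. In mesenchymal barcodes, 18 of 29 genes for collagen processing and crosslinking were above background in both libraries. So were 15 of 16 fibril partners, 13 of 17 basement membrane partners and 5 of 12 collagen receptors. Of all detected genes, 29.7% in wild type and 22.3% in yap1 were above background. The list counts take all members, detected or not, and need both libraries, so these measures are not alike. Serpinh1, the collagen chaperone HSP47, had 331 and 377 UMIs in mesenchymal barcodes, a ratio of 1.67 (1.44 to 1.94). Of the 20 processing genes compared, 5 were higher in yap1 and none lower, beside 8.59% higher and 9.71% lower of all genes: Serpinh1, P4hb, Plod2, Pcolce and Lox. Plod2, a lysyl hydroxylase, was at 2.39 (1.40 to 4.15) and Lox, the crosslinking lysyl oxidase, at 2.45 (1.53 to 3.99). Of 14 fibril partners, 5 were higher and none lower, namely Fn1, Eln, Fbn2, Postn and Tnc. Fn1, fibronectin, was at 2.41 (1.90 to 3.07) and Tnc, tenascin C, at 4.41 (2.36 to 8.74). Of 10 basement membrane partners Hspg2, perlecan, was higher at 2.30 (1.56 to 3.44), and of 5 receptors Ddr1 was higher at 2.83 (1.43 to 5.84). The list medians were 0.48, 0.58, 0.43 and 0.41 on the log2 scale for processing, fibril, basement membrane and receptor genes, against -0.08 for all genes. These values include the richest yap1 barcode, whose part in them was not tested.

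Endothelial barcodes carried partners of type IV collagen at high counts. In all, 13 of 29 processing genes, 9 of 17 basement membrane partners, 4 of 16 fibril partners and 4 of 12 receptors were above background in both libraries. Of all detected genes, 29.4% in wild type and 22.1% in yap1 were, a measure not like the list counts, as above. Sparc, a collagen-binding matrix protein, had 3024 and 2022 UMIs, Hspg2 873 and 710, Nid1, nidogen, 488 and 368, and Pxdn, peroxidasin, 180 and 142. Mrc1, a receptor that takes up collagen, had 1662 and 1206 UMIs, and Serpinh1 373 and 255. Of the 16 processing genes compared, P3h1, a prolyl hydroxylase, was lower in yap1, at 0.38 (0.127 to 0.961), and none was higher, beside 3.83% lower and 3.16% higher of all genes. None of the 9 basement membrane partners and 5 receptors was called. Of 5 fibril partners, Fn1, which was not above background, was higher at 2.59 (1.08 to 6.65) and Fbn1, fibrillin, lower at 0.476 (0.253 to 0.851).

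In myeloid barcodes the partners were read where chains were nearly absent. Fn1 had 5921 and 7821 UMIs, a ratio of 0.987 (0.954 to 1.02), and Thbs1, thrombospondin, 7234 and 7855, a ratio of 0.812 (0.786 to 0.838). Among 14 processing genes Pcolce2, at 0.538 (0.423 to 0.684), and Lox, at 0.436 (0.209 to 0.878), were lower in yap1 and none was higher, beside 5.08% lower and 2.94% higher of all genes. Of the 4 fibril partners compared, Vcan, versican, was lower at 0.459 (0.401 to 0.525) and Bgn, biglycan, which was not above background, at 0.467 (0.228 to 0.928). Nid2, a nidogen, was the lower of 6 basement membrane partners at 0.455 (0.216 to 0.923). Of 5 receptors none was called, with Lair1, an inhibitory collagen receptor, at 1.03 (0.977 to 1.09) and Mrc1 at 0.668 (0.617 to 0.722). The Kupffer cell list was at 3095 CPM in wild type and 1616 CPM in yap1 myeloid barcodes, the Gpnmb macrophage list at 2648 and 3858 CPM, and the neutrophil list at 17523 and 9026 CPM. In barcodes outside the 3 gates and the B cell class, the neutrophil list was at 18648.5 and 18924.7 CPM. Lyz2, a gating gene, was at 15325 CPM in wild type and 8327 CPM in yap1 myeloid barcodes. The part of these levels, and of the Lyz2 minimum, in the myeloid ratios was not tested.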

How the data were processed

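The deposited files hold raw UMI counts per gene and barcode as the authors made them, as whole numbers in 1 sparse matrix per library with its gene and barcode lists, per the file headers. Genome build mm10, Bowtie 0.12.2 and Seurat are named in the submitters' processing notes, with no roles, and how barcodes were selected before deposit is not stated. Barcodes under 500 UMIs, under 200 genes or over 20% mitochondrial RNA were dropped. The kept barcodes held 8674 wild type and 7325 yap1 UMIs of the collagen chain genes. Levels are UMIs summed over a class and scaled to its total. Shares have exact Clopper-Pearson intervals, levels exact Poisson intervals and ratios exact conditional binomial intervals, all at 95% and for counting error only, since UMIs of 1 library share its preparation. A gene was compared between libraries with at least 20 UMIs in the class over both, and called past 1.5-fold with an interval that excluded 1. No p-value was computed.

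Every collagen chain gene is named; those with at least 20 UMIs over the 3 classes are described, those with 1 to 19 are given by total. Of the other lists, up to 4 members with most UMIs in a class and those past the ratio rule could be named. The genes and lists were chosen with earlier results of these data known. A doublet caller (Scrublet in scanpy 1.11.5) marked 0.0413% and 0.0964% of barcodes and so had not worked; doublets were treated only by setting apart barcodes of more than 1 gate, with the 4% highest scores left out as an alternative. On simulated class sums, 200 genes with at least 100 UMIs were given known 2-fold changes. The ratio rule recovered 94.5% of these in mesenchymal barcodes, 96.5% in endothelial and 99.5% in myeloid, among 4094, 8772 and 11486 genes compared. The sums were drawn with counting error alone and no spread between barcodes. Recovery near 20 UMIs, or where a few barcodes set the values, was therefore not tested. Thinning to 1000 UMIs left out 4 and 4 mesenchymal, 34 and 28 endothelial, 26 and 14 myeloid barcodes. Among the 21 described genes, Col1a2 and Col27a1 share 50-base words in the last 500 bases of a transcript with another gene. Col3a1 overlaps a gene on its own strand, and Col5a1, Col15a1, Col4a1 and Col4a2 overlap one on the other strand, so their counts could hold reads of both. Coordinates are those of the gene annotation for mm10, and promoter windows come from RefSeq on GRCm38.p6. Intervals were computed with scipy 1.17.1 under Python 3.11.15, on tables handled by pandas 2.3.3 and numpy 2.4.6, and plots were drawn with matplotlib 3.10.9.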

Additional observations from a re-analysis of the deposited data

Results flagged for a closer look

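Barcodes outside the 3 gates, which enter none of the class comparisons, carried 3 chains with at least 10 UMIs and a lower Poisson limit above the upper limit in B cell barcodes, in both libraries. By the rule on shares used in the report, Col4a2 passed in wild type only. Col18a1 was at 3.44 CPM in wild type and 3.88 CPM in yap1, against 0 and 0.225 CPM in B cell barcodes. Col4a1 was at 8.66 and 7.04 CPM, against 0.203 and 0.45 CPM. Col4a2 was at 4.80 and 4.08 CPM, against 0.203 and 0.674 CPM.

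The yap1 to wild type ratio differed between classes for 3 chains, with intervals that did not overlap for Col5a2, Col4a1 and Col4a2. Col5a2 was at 2.88 in mesenchymal and 0.625 in endothelial barcodes. Col4a1 was at 1.46 and 0.966, and Col4a2 at 1.95 and 0.996. With 1 library per genotype these differences were not tested, and without the richest barcode of each library the mesenchymal intervals of Col4a1 and Col4a2 overlapped the endothelial ones.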

How the results depend on the processing

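No paired analysis was possible because each genotype has 1 library. With 37 and 23 mesenchymal barcodes, a few barcodes set the values of that class. The cause of the shifts below was not tested, beyond the barcodes each alternative removes or adds. Leaving out the barcode with most collagen (of 1 library or of both), and leaving out barcodes with at least 2 Msln UMIs, were chosen after seeing the data. No alternative has a test. Of the 4 gene lists in 3 classes, 4 of 12 medians moved when 100 UMIs were required.

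The wild type mesenchymal level was 15577 CPM under the stricter barcode filter, 24941 with at least 2 Dcn UMIs, 21102 with at least 2 other markers, 16887 with the endothelial gate at Ptprb or Kdr and 14251 with the stricter myeloid gate. It was 6789 with barcodes of several gates counted in each, 18257 without the 4% highest doublet scores, 10407 with barcodes weighted equally, 6040 without the 5 richest barcodes and 12776 without the richest. The yap1 level was 24238 CPM with no barcode filter, 29399 with at least 2 Dcn UMIs, 29463 with at least 2 other markers, 21808 with the stricter myeloid gate and 9359 with several gates counted. It was 20115 weighted equally, 7006 without the 5 richest, 13414 without the richest and 36390 without Msln barcodes.

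The yap1 over wild type ratio of the mesenchymal sum was below 1 in 1 alternative, at 0.835 without the richest yap1 barcode, and 1.97 without the richest wild type barcode. It was 1.49 with no filter, 1.18 with at least 2 Dcn UMIs, 1.40 with at least 2 other markers, 1.38 with several gates counted, 1.38 without the highest doublet scores and 1.93 weighted equally. It was 1.16 without the 5 richest, 1.66 scaled by the median of ratios, 1.05 without the richest of both libraries and 2.26 without Msln barcodes. Ratios of called and uncalled chains crossed 1 in the mesenchymal class as follows. Without the 5 richest, Col5a1 was at 0.900, Col15a1 at 0.869 and Col14a1 at 0.299. Without the richest, Col5a1 was at 0.948 and Col1a1 at 0.888. Thinned to 1000 UMIs, Col4a5 was at 0.868, Col4a2 at 0.651 and Col6a5 at 2.61. With several gates counted, Col4a1 was at 0.892 and Col4a2 at 0.975, and weighted equally Col14a1 was at 0.917.

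The endothelial level with Ptprb or Kdr was 1034 CPM in wild type and 974 CPM in yap1, and with several gates counted 1739 and 1285 CPM. Weighted equally it was 1365 CPM in yap1. The endothelial ratio was 0.739 with several gates counted and 1.05 thinned. The myeloid level with several gates counted was 39.5 and 15.6 CPM, a ratio of 0.395, and weighted equally 16.5 and 16.2 CPM.

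The number of chains detected depends on depth. Thinned to 1000 UMIs it was 12 and 13 in mesenchymal, 6 and 5 in endothelial, and 3 and 3 in myeloid barcodes. At 10 UMIs in 5 barcodes it was 15 and 13, 6 and 6, and 8 and 8. With several gates counted, 17 chains were detected in wild type endothelial barcodes.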

Other observations

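The barcodes outside the gates were split by markers after values were seen, and are given as values. Of the 16 wild type and 12 yap1 barcodes with at least 2 bile duct markers, 12 and 6 had Col27a1, with 17 and 13 UMIs. They also held 9 and 10 UMIs of Col18a1 and 6 and 9 of Col4a5, and their collagen level was 383 and 380 CPM, with no Col13a1. The 115 and 110 barcodes in which hepatocyte genes made at least 5% of UMIs held 21 and 24 UMIs of Col18a1, in 15 and 12 barcodes, or 86.5 CPM in each library. This was most of their collagen, 30 and 27 UMIs. Endothelial barcodes, by comparison, had 20 and 5 UMIs of Col18a1. The 154 and 106 barcodes with Ptprb or Kdr alone carried the endothelial chains, with 64 and 43 UMIs of Col4a1, 29 and 31 of Col4a2 and 15 and 14 of Col13a1. The remaining 1789 and 1517 barcodes were at 19.7 and 16.4 CPM.

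Among barcodes of more than 1 gate, 2 of the wild type library held 480 and 277 collagen UMIs. The first had 211 Dcn UMIs with 25 of Ptprb and 33 of Kdr, and carried 212 UMIs of Col3a1. The second had 348 Dcn UMIs with none of Ptprb or Kdr, and carried 56 UMIs of Col6a5.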
